A study of Mus musculus with 4 samples.

Results

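Cells of the mouse gastrula that carried transcripts of *Pou5f1*, a transcription factor of pluripotent cells, and no transcript of 8 genes of the streak, mesoderm, endoderm or extraembryonic lineages were described at the mid to late streak stage (MS-LS) and at the no bud to early bud stage (OB-EB). A cell was a member if it held at least 1 unique molecular identifier (UMI, the tag that marks 1 captured RNA molecule) of *Pou5f1* and none of *T*, *Eomes*, *Mixl1*, *Mesp1*, *Foxa2*, *Elf5*, *Ascl2* or *Apob*. The rule found 874 members among 3635 MS-LS cells and 1136 among 3994 OB-EB cells, which makes 2010 members of 7629 cells. The whole series holds 11123 cells when the identical tables of its latest stage are counted as 1 library.

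The study followed primitive streak cells into the heart and collected single-cell libraries by droplet capture at 3 stages. All embryos had the genotype TnEGP-CreERT2/+; R26Rtdtomato/R26Rtdtomato, in which an inducible Cre is expressed from the *T* locus and recombination turns on the red reporter tdTomato, and all dams received tamoxifen by oral gavage at 0.08 mg/bw. The MS-LS embryos were of age E6+21h, with tamoxifen at E6+5h, and the OB-EB embryos were of age E7+3h, with tamoxifen at E6+21h. The latest stage, labelled EHF, had an age of E7+14h and tamoxifen at E7+7h, and it is used here only for the reporter. Each library came from several pooled embryos whose cells were not assigned to an embryo, so each stage is 1 library, no test between stages was possible, and the stage and the library cannot be told apart.

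The epiblast is the pluripotent epithelium from which all tissues of the embryo proper arise. During gastrulation some of its cells enter the primitive streak, lose E-cadherin and become mesoderm or endoderm, while those that stay behind remain epithelial and later form neural and surface ectoderm. Pou5f1 keeps these cells pluripotent together with partners such as Sox2, Nanog and Otx2, and its expression declines as the germ layers form.

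A level is a gene's UMIs summed over a group of cells and scaled to 1000000 UMIs of that group (CPM), and it carries an exact Poisson 95% interval. Shares of cells carry exact binomial 95% intervals, and ratios are given as log2 with the exact interval of a ratio of 2 counts. All of these intervals cover counting error only. A difference is called beyond counting error where the interval of its log2 ratio leaves out 0. The MS-LS members held 3669194 UMIs with a median of 3804.5 per cell, and the OB-EB members held 3181754 with a median of 2483. The other cells had medians of 4452 and 2677.5. Mitochondrial transcripts took 1.52% and 1.72% of the members' UMIs. Of the members that could be called by sex-linked transcripts, 50.7% were female in MS-LS and 63.3% in OB-EB, close to the 52.0% and 63.1% of the other cells of the same libraries.

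Members made up 24.0% (22.7 to 25.5) of the MS-LS cells and 28.4% (27.0 to 29.9) of the OB-EB cells as deposited. This order depended on depth. With every cell reduced to 2000 randomly drawn UMIs, and 231 MS-LS and 1055 OB-EB cells of lower depth left out, the rule found 28.9% (27.4 to 30.5) in MS-LS and 27.3% (25.7 to 29.0) in OB-EB. Without thinning, 20.1% of MS-LS and 17.1% of OB-EB cells held at least 2 *Pou5f1* UMIs and no excluded transcript. This limit turned the order too, but it also depends on depth, and OB-EB is the library of lower depth. Among cells with 2000 UMIs or more, not thinned, the order stayed as deposited, with 23.5% in MS-LS and 28.0% in OB-EB. MS-LS had the higher share at all 6 thinned depths, from 1000 to 4000 UMIs, by 1.07 to 2.34 percentage points. The difference left counting error at 1500 UMIs, with 2.34 points (0.29 to 4.39, Newcombe 95% interval), and not at the other 5 depths, with 1.58 points (-0.64 to 3.80) at 2000 UMIs. The depths share the same cells.

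**Figure D1:**
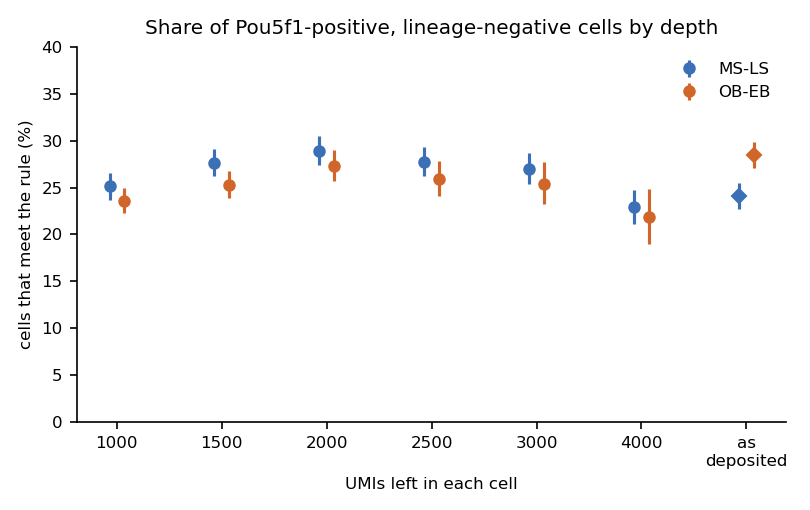
Share of cells (%) that meet the rule in MS-LS (blue) and OB-EB (orange) with every cell thinned to the number of UMIs on the horizontal axis (circles) or as deposited (diamonds), with bars for exact binomial 95% intervals. At 2000 UMIs the MS-LS share was 28.9% and the OB-EB share 27.3%, while the shares before thinning were 24.0% and 28.4%.

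*Pou5f1* itself was carried by many more cells than the members. It was detected in 2198 MS-LS cells (60.5%) and 2108 OB-EB cells (52.8%). Of those, 60.2% and 46.1% were left out because they also held an excluded transcript. *Eomes*, a T-box factor of the streak, removed the most MS-LS cells, 862 of 2198 (39.2%), and fewer OB-EB cells, 342 of 2108 (16.2%). *Foxa2*, a factor of the anterior streak and endoderm, was found beside *Pou5f1* in 222 MS-LS and 60 OB-EB cells, *Mesp1*, a factor of nascent mesoderm, in 449 and 437, and *T* in 372 and 433. Transcripts of *Elf5* and *Ascl2*, genes of the trophoblast lineage, removed 92 and 19 MS-LS cells and 20 and 17 OB-EB cells.

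The label of an epiblast was checked against *Utf1*, a chromatin factor of pluripotent cells, and *Dnmt3b*, the de novo DNA methyltransferase of the epiblast. At a depth of 2000 UMIs *Utf1* was found in 41.3% (38.2 to 44.4) of MS-LS members and 30.9% (27.7 to 34.2) of OB-EB members. Cells with visceral endoderm transcripts, which should lack it, held a *Utf1* UMI in 5.92% and 4.61% of cases. Before thinning the shares of members with a *Utf1* UMI were 63.6% and 38.5%. *Dnmt3b* was found in 78.9% of MS-LS and 78.2% of OB-EB members at 2000 UMIs, against 42.2% and 42.8% of the visceral endoderm cells. Both markers were thus more frequent in members than in that background. *Utf1* was not restricted to embryonic cells, since it was found in 44.2% and 36.4% of cells with extraembryonic ectoderm transcripts at the same depth. *Pou5f1* itself was found in 9.26% and 9.54% of the visceral endoderm cells at 2000 UMIs, which is taken here as the background of its detection.

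Most members, though not all, carried several epiblast transcripts. At least 3 different genes of a list of 11 epiblast markers outside the rule were found in 715 MS-LS members (81.8%) and 732 OB-EB members (64.4%), against 54.4% and 30.8% of the other cells. These shares depend on depth. After thinning to 2000 UMIs they were 67.6% and 58.2% in members and 25.8% and 21.9% in other cells. Genes of other lineages were present at low levels. At least 3 of 24 mesoderm genes were found in 8.58% and 9.77% of members, against 40.5% and 42.6% of other cells. At least 3 of 17 visceral endoderm genes were found in 17.4% and 10.5% of members, and in 5.08% and 5.73% after thinning to 2000 UMIs. Summed over the list, visceral endoderm genes reached 797 and 844 CPM in members and 9921 and 8074 CPM in other cells. Extraembryonic ectoderm genes reached that limit in 9 and 3 members, blood and endothelial genes in 9 and 8, trophoblast genes in 12 and 9, germ cell genes in 3 and 3 and surface ectoderm genes in 10 and 4. With the members that reached the limit for mesoderm, either endoderm, extraembryonic ectoderm or blood left out, 17.3% of MS-LS and 22.4% of OB-EB cells remained, and the stage comparison below gave 204 and 92 genes in place of 238 and 112.

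Members that barely met the rule differed from those well inside it. With 1 *Pou5f1* UMI (142 MS-LS and 454 OB-EB members), *Utf1* stood at 173 and 174 CPM, against 143 and 92.7 CPM in cells with no *Pou5f1* UMI and no excluded transcript. With 5 or more *Pou5f1* UMIs (308 and 91 members) it stood at 401 and 269 CPM. *Dnmt3b* followed the same order, with 484 and 856 CPM at 1 UMI and 1278 and 1236 CPM at 5 or more. The opposite order was found for *Phlda2*, an imprinted gene that restrains placental growth, at 1860 and 887 CPM with 1 *Pou5f1* UMI and 80.9 and 171 CPM with 5 or more. *Spink1*, a protease inhibitor abundant in the endoderm of these libraries, stood at 1267 and 731 CPM with 1 UMI and at 508 and 378 CPM with 5 or more. In MS-LS the homeobox gene *Rhox5*, high in extraembryonic cells, stood at 218 CPM with 1 UMI and 24.3 CPM with 5 or more. Members with 1 *Pou5f1* UMI, which are more numerous in OB-EB, thus held more of these transcripts than members with 5 or more. Just outside the rule, cells with *Pou5f1* and exactly 1 excluded UMI (393 and 394 cells) had 218 and 113 CPM of *Utf1* and 583 and 1046 CPM of *Phlda2*. These values describe the rule's own limit and carry no test.

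**Figure D2:**
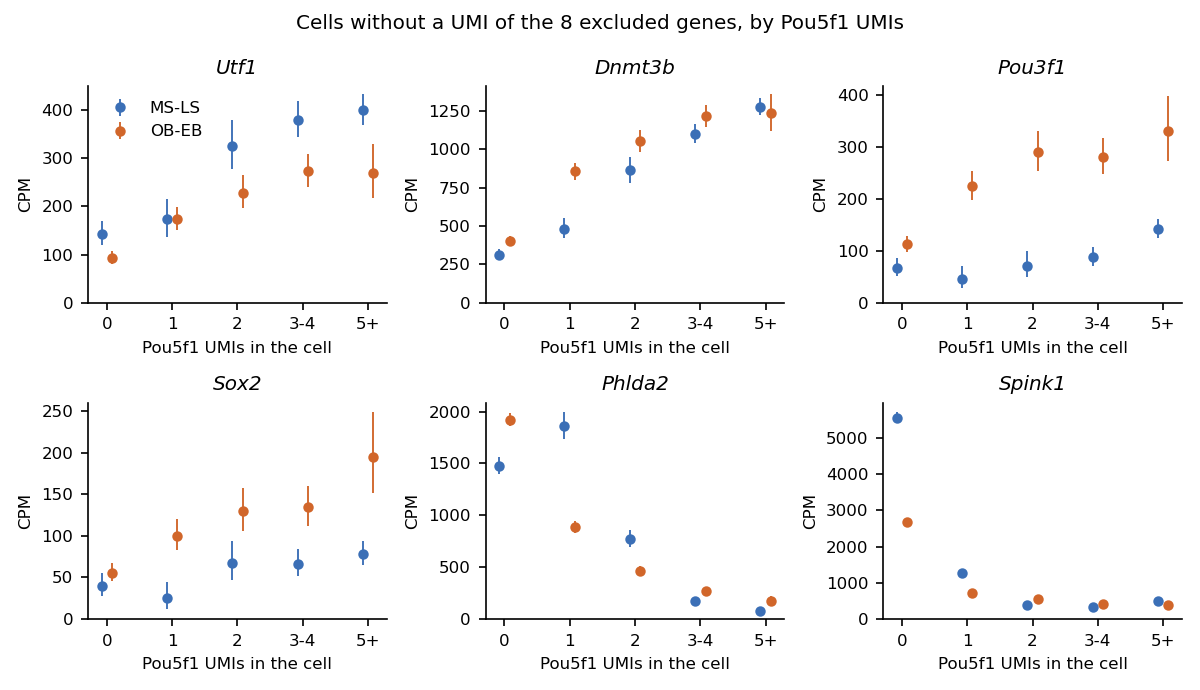
CPM of 6 genes in cells without an excluded transcript, grouped by the number of Pou5f1 UMIs in the cell (0 lies outside the rule), with MS-LS in blue, OB-EB in orange and bars for exact Poisson 95% intervals. Utf1 and Dnmt3b were lowest at 0 and highest in the groups of 3 or more UMIs, while Phlda2 in MS-LS went from 1860 CPM at 1 UMI to 80.9 CPM at 5 or more.

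Against the other cells of their own library, members held more of most epiblast markers, though not of all pluripotency genes. Since the rule chose the members in the same cells, this is a description of what the rule gathers. In MS-LS, 123 of 8364 genes (1.47%) stood at least 2-fold higher in members and 949 (11.3%) at least 2-fold lower, and in OB-EB 79 of 7273 (1.09%) and 393 (5.4%). Of the 11 epiblast markers, 3 were 2-fold higher in MS-LS (*Utf1*, *Pim2* and *Slc7a3*) and 6 in OB-EB (these 3 with *Dnmt3b*, *Pou3f1* and *Sox2*). *Tdgf1* was 2-fold lower in OB-EB members. Beyond counting error, 9 markers were higher and 1 lower at each stage. A list of pluripotency genes was mixed, with 3 of 23 genes 2-fold higher and 6 2-fold lower in MS-LS. In OB-EB 4 of 17 were 2-fold higher and 2 lower. *Slc7a3*, a transporter of arginine and lysine, was the gene with the largest log2 ratio in MS-LS, 2.21 (2.01 to 2.41), with 122 CPM in members and 26.4 CPM in other cells. It stood at 74.2 and 17.3 CPM in OB-EB, a log2 ratio of 2.10. *Uchl1*, a ubiquitin hydrolase best known from neurons, led in OB-EB with 32.4 CPM in members and 6.78 CPM in other cells, a log2 ratio of 2.26, and had 25.1 and 5.74 CPM in MS-LS. The kinase gene *Pim2* had 376 CPM in members and 107 CPM in other cells of MS-LS, and 300 and 74.8 CPM in OB-EB. The 10 genes with the largest ratio in MS-LS were completed by *Gm42637*, *Platr10*, *Myb*, *Gm11627*, *Foxd3*, *Mtap7d3*, *Syt11* and *Tubb4a*, with log2 ratios of 1.89 to 2.17. In OB-EB they were completed by *Elavl3*, *Pim2*, *Cxcl12*, *Trim54*, *Pou5f1*, *Mgst1*, *Utf1* and *Sox3*, with log2 ratios of 1.68 to 2.01.

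Genes of other lineages stood lower in members. All 19 mesoderm genes with enough UMIs in OB-EB and 17 of 20 in MS-LS were at least 2-fold lower than in other cells, as were all 16 visceral endoderm genes in MS-LS and all 13 in OB-EB. The mesenchymal genes *Cdh2*, which encodes N-cadherin, and *Fn1*, which encodes fibronectin, had log2 ratios of -1.60 and -1.48 in MS-LS and -1.37 and -1.62 in OB-EB. *Cdh1*, which encodes E-cadherin, was not higher in MS-LS members, with 105 CPM against 117 CPM in other cells, a log2 ratio of -0.15 (-0.31 to 0.01), and stood at 64.7 against 50.7 CPM in OB-EB. Of the other MS-LS cells, 37.9% held at least 3 visceral endoderm genes and 17.0% at least 3 extraembryonic ectoderm genes, so the comparison is not one with mesoderm alone.

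**Figure D3:**
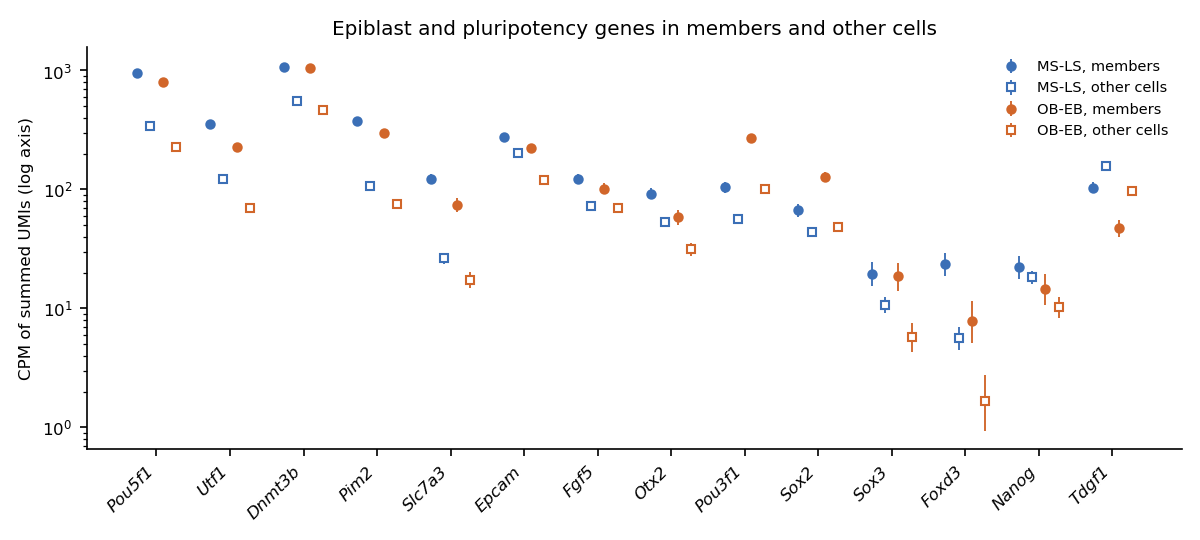
CPM (log axis) of 14 epiblast and pluripotency genes in members (filled circles) and other cells (open squares) of the MS-LS (blue) and OB-EB (orange) libraries, with bars for exact Poisson 95% intervals. Slc7a3 stood at 122 CPM in MS-LS members and 26.4 CPM in the other cells, whereas Tdgf1 was lower in members than in other cells at both stages.

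The nearest cells left out were those with *Pou5f1* and a UMI of *T*, *Eomes* or *Mixl1*, here called Pou5f1-positive streak cells (1083 in MS-LS and 711 in OB-EB). Only 27 of 6463 genes (0.418%) in MS-LS and 26 of 5119 (0.508%) in OB-EB were at least 2-fold higher in members than in these cells, and 166 (2.57%) and 91 (1.78%) were 2-fold lower. *Utf1* had the largest log2 ratio over streak cells in OB-EB, 1.94, and the second largest in MS-LS, 1.68. *Pou3f1* had log2 ratios of 1.11 and 1.5. *Nanog*, by contrast, was lower in members than in streak cells of MS-LS, with a log2 ratio of -0.63 (-1.02 to -0.26), and its -0.35 (-0.96 to 0.25) in OB-EB did not leave counting error. *Tdgf1*, the Nodal co-receptor Cripto, had -1.33 and -1.67, *Fst*, an extracellular inhibitor of activin, -1.64 and -1.22, and *Fgf8*, a growth factor made in the streak, -1.25 and -1.03. *Cxcl12*, a chemokine, did not separate the groups in MS-LS, with a log2 ratio of 0.07, and had 1.43 in OB-EB.

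The rule did not choose members by stage, but it also shaped the comparison of stages within members. Members with 1 *Pou5f1* UMI were more numerous in OB-EB, the library of lower depth. Excluded transcripts removed 60.2% of the *Pou5f1*-positive cells in MS-LS and 46.1% in OB-EB. The stage ratios are therefore not free of the selection. Among members with at least 2 *Pou5f1* UMIs, 193 genes stood 2-fold higher in OB-EB and 105 lower, in place of 238 and 112. Of 5305 genes with at least 100 UMIs over the members of both stages, 238 (4.49%) stood at least 2-fold higher in OB-EB and 112 (2.11%) at least 2-fold lower. Differences beyond counting error were far more common, with 1293 genes higher (24.4%) and 1557 lower (29.3%), and the median log2 ratio was -0.06. The same comparison in the other cells, which share the libraries, gave 376 (4.11%) and 306 (3.35%) of 9139 genes at 2-fold, and that in streak cells 231 (3.63%) and 153 (2.4%) of 6372. Of the 5300 genes tested in both members and other cells, 201 were 2-fold higher and 88 2-fold lower in other cells. Those included 159 of the 238 genes higher in members (66.8%) and 53 of the 111 lower (47.7%). Most of the ratios below are therefore set beside those of the other cells.

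*Pou5f1* (chr17:35506018-35510772, build GRCm38) was slightly lower in OB-EB members, with 953 CPM (922 to 985) in MS-LS and 805 CPM (774 to 837) in OB-EB, a log2 ratio of -0.24. Its level was part of the rule. *Utf1* (chr7:139943789-139945112) stood at 357 CPM (338 to 377) in MS-LS members and 226 CPM (210 to 243) in OB-EB members, a log2 ratio of -0.66 (-0.79 to -0.53), and its ratio in other cells was -0.81. *Dnmt3b* (chr2:153649450-153687730) had 1072 and 1050 CPM, a log2 ratio of -0.03 (-0.10 to 0.04) that did not leave counting error, beside -0.25 in other cells.

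Among 17 pluripotency genes with enough UMIs, 7 were higher and 9 lower beyond counting error, where 24.4% and 29.3% of all genes tested were, and of these 1 was 2-fold higher and 3 were 2-fold lower. The list therefore held both directions, with a median log2 ratio of -0.28, that of *Fgf5*, beside -0.06 over all genes tested. The median lies at a gap in the list, since the next higher gene, *Lin28b*, had 0.14 (-0.26 to 0.54). The largest negative ratio among its genes was that of *Dppa5a*, an RNA-binding protein gene of pluripotent stem cells, which stood at 58.1 CPM in MS-LS members and 13.8 CPM in OB-EB members, a log2 ratio of -2.07 (-2.57 to -1.60), and had -1.57 in other cells. *Foxd3*, a forkhead factor needed to maintain the epiblast, stood at 23.4 and 7.86 CPM, a log2 ratio of -1.58 (-2.28 to -0.92). *Tdgf1* stood at 104 and 47.1 CPM, a log2 ratio of -1.14 (-1.42 to -0.86). *Otx2*, a homeobox factor of the primed epiblast and the anterior embryo, had 91.8 and 58.1 CPM, a log2 ratio of -0.66, and *Nanog* had 22.3 and 14.5 CPM, a log2 ratio of -0.63 (-1.18 to -0.09). Lower levels at OB-EB were also found in other cells for all 5 of these genes, with log2 ratios between -0.71 and -1.77, of which that of *Foxd3* rests on fewer than 100 UMIs.

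*Pou3f1* and *Sox2* stood out on the other side. *Pou3f1* (chr4:124656807-124660655), a POU factor of the primed epiblast and early neural ectoderm, stood at 104 CPM (93.7 to 115) in MS-LS members and 268 CPM (250.4 to 287) in OB-EB members, a log2 ratio of 1.37 (1.19 to 1.55). Its log2 ratio was 0.85 in other cells and 0.98 in streak cells, so the stage ratio in members exceeded that in other cells by 0.52 (0.30 to 0.74). With only the cells called female it was 0.79, below 2-fold. *Sox2* (chr3:34650405-34652461), an SRY-box factor shared by pluripotent and neural cells, stood at 66.8 CPM (58.7 to 75.7) and 127 CPM (115 to 140), a log2 ratio of 0.93 (0.70 to 1.17). In other cells it had 43.7 and 48.3 CPM, a log2 ratio of 0.15 (-0.03 to 0.32), and the difference of 0.79 (0.50 to 1.07) was beyond counting error. At 2000 UMIs per cell, *Pou3f1* was found in 15.7% of MS-LS and 37.7% of OB-EB members, and *Sox2* in 10.4% and 18.1%, with at most 2.30% in the visceral endoderm cells for either gene. Cells with extraembryonic ectoderm transcripts also held them at this depth, *Pou3f1* in 22.3% and 56.4% and *Sox2* in 18.4% and 25.5%. Since cells with at least 3 genes of that lineage were 17.0% of the other cells in MS-LS and 5.42% in OB-EB, and their part in the ratios of other cells was not tested, the streak cells are the closer comparison. There the log2 ratio of *Sox2* was 0.51, and that of members exceeded it by 0.42 (0.06 to 0.78). *Sox3*, a relative of *Sox2*, did not differ between stages in members beyond counting error (19.6 and 18.5 CPM) while its log2 ratio was -0.89 in other cells. Genes of the anterior neural plate were mostly too rare to compare, and 4 of 20 had enough UMIs.

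Other pluripotency genes with higher levels in OB-EB members were *Trim71*, *Sall4*, *Sall1*, *Zic5* and *Lin28a*, which encode RNA-binding proteins (*Trim71*, *Lin28a*) and zinc-finger factors. *Sall4* had 179 and 282 CPM, a log2 ratio of 0.65, and *Trim71* had 46.6 and 82.3 CPM, a log2 ratio of 0.82. Their ratios in other cells were of similar size, 0.67 and 0.63. Of the DNA methylation genes, *Dnmt1*, the maintenance methyltransferase, stood at 48.5 and 76.4 CPM, a log2 ratio of 0.65 (0.37 to 0.94), and *Dnmt3a* stood at 104 and 63.8 CPM, a log2 ratio of -0.71 (-0.96 to -0.46). In other cells they had 0.39 and -0.39. *Dnmt3b*, *Uhrf1* and *Tet1* did not leave counting error.

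The largest stage ratio among members belonged to *Sp8* (chr12:118846329-118852576), a zinc-finger factor of Wnt and Fgf signalling in the caudal and anterior embryo. It stood at 8.18 CPM (5.52 to 11.7) in MS-LS members and 116 CPM (104 to 128) in OB-EB members, a log2 ratio of 3.83 (3.29 to 4.41). *Sp8* was also higher in the other cells of OB-EB, with 9.86 and 71.6 CPM and a log2 ratio of 2.86, and in streak cells with 3.06. The ratio in members exceeded that in other cells by 0.97 (0.37 to 1.56). At 2000 UMIs it was found in 2.03% (1.25 to 3.12) of MS-LS members and 18.9% (16.3 to 21.8) of OB-EB members, against 1.21% and 2.96% of visceral endoderm cells. *Fst* (chr13:114452290-114458951) had 43.9 CPM (37.4 to 51.2) and 113 CPM (101 to 125), a log2 ratio of 1.36 (1.09 to 1.64), beside 0.78 in other cells. These were the 2 genes of the caudal epiblast list that were 2-fold higher, among 4 of 20 with enough UMIs. *Fgf8* (69.0 and 58.1 CPM) and *Cyp26a1*, which degrades retinoic acid (15.3 and 16 CPM), did not leave counting error. *Nkx1-2*, a marker of the caudal epiblast, was found in 0.305% and 0.498% of members at 2000 UMIs.

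Of 11 epithelial genes, 6 were lower at OB-EB, 1 was higher and 4 stayed within counting error, beside 29.3% lower and 24.4% higher over all genes, and none reached 2-fold. Their median log2 ratio was -0.44. In other cells 12 of 14 were lower, with a median of -0.71, and in streak cells 6 of 11, with a median of -0.47. *Cdh1* had 105 and 64.7 CPM in members, a log2 ratio of -0.70 (-0.95 to -0.45), and -1.20 in other cells. The tight junction gene *Cldn6* had 79.0 and 47.1 CPM, a log2 ratio of -0.75 beside -1.33 in other cells, and *Epcam*, an epithelial adhesion gene, had 274 and 221 CPM, a log2 ratio of -0.31 beside -0.75. *Tjp1*, a junction scaffold, was the 1 that was higher, with 59.1 and 96.5 CPM and a log2 ratio of 0.71 beside 0.42. In streak cells *Cdh1* had -0.60, *Cldn6* -1.15 and *Epcam* -0.56. The ratios in members differed from these by -0.10 (-0.45 to 0.25), 0.40 (-0.04 to 0.85) and 0.25 (0.04 to 0.46), only the last beyond counting error. Both mesenchymal genes with enough UMIs were higher at OB-EB, *Cdh2* with 15.0 and 39.0 CPM and a log2 ratio of 1.38 (0.91 to 1.86), and *Fn1* with 42.5 and 61.9 CPM and 0.54 (0.23 to 0.85). Other cells had 1.15 and 0.68, which differed from the ratios of members by 0.23 (-0.25 to 0.71) for *Cdh2* and -0.14 (-0.45 to 0.18) for *Fn1*, both within counting error. Both stayed well below their levels of 101 and 190 CPM in the other OB-EB cells. *Lhx1*, a homeobox gene of the mesoderm list, had 16.6 and 36.8 CPM in members, a log2 ratio of 1.15, but only 0.38 among members with 2 or more *Pou5f1* UMIs and 0.34 after thinning, and 5.91 CPM in OB-EB members with 5 or more. The 7 visceral endoderm genes with enough UMIs all stayed within counting error between stages.

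**Figure D4:**
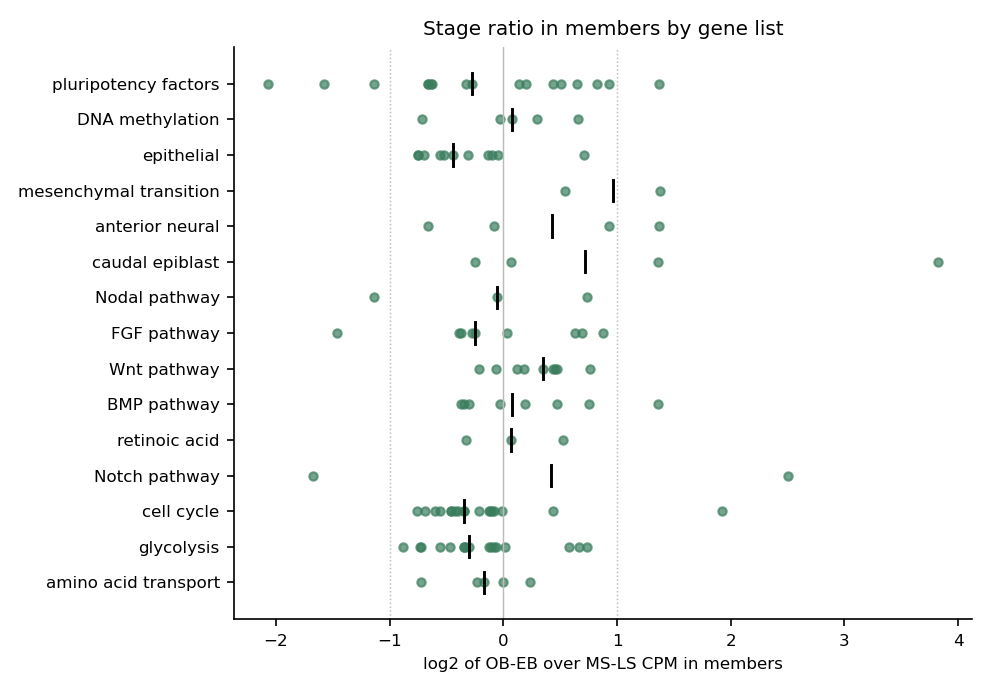
Log2 of OB-EB over MS-LS CPM in members for the genes of 15 lists with at least 100 UMIs over both stages; each point is a gene, the black bar is the median of the list, and dotted lines mark 2-fold. Sp8 at 3.83 and Notch2 at 2.51 lay farthest to the right and Dppa5a at -2.07 farthest to the left, and the medians of the lists lay between -0.44 and 0.96.

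Signalling genes of the members were few and mixed. Their counts stand beside 24.4% higher and 29.3% lower beyond counting error over all genes tested. In the Nodal pathway 3 of 16 genes had enough UMIs, of which *Tdgf1* was lower and *Smad4*, the common Smad, was higher with 33.5 and 55.9 CPM, a log2 ratio of 0.74 beside 0.57 in other cells. In the Fgf pathway 3 of 9 genes were higher and 4 lower. Its ligand *Fgf5*, typical of the primed epiblast, had 123 and 102 CPM, a log2 ratio of -0.28 (-0.49 to -0.07), the receptor *Fgfr1* had 37.9 and 58.8 CPM, a log2 ratio of 0.63, and the inhibitors *Spry2* and *Spred1* were higher with log2 ratios of 0.69 and 0.88. In other cells *Fgf5* had -0.06, *Fgfr1* 0.55, *Spry2* 0.83 and *Spred1* 0.57. The early response gene *Egr1* was lower with 28.6 and 10.4 CPM, a log2 ratio of -1.46 that stood beside -1.61 in other cells. In the Wnt pathway the receptor *Lrp6* and the nuclear effector *Lef1* were higher and 7 of 9 genes stayed within counting error. *Lef1* had 42.5 and 72.3 CPM in members, a log2 ratio of 0.77 (0.47 to 1.07), and 37.6 and 114 CPM in other cells, a log2 ratio of 1.60, so that the difference of -0.84 (-1.17 to -0.51) was beyond counting error.

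Of 8 genes of the BMP pathway, 3 were higher and 2 lower, beside 24.4% higher and 29.3% lower over all genes. The receptor *Bmpr1a* and the effector *Smad1* were higher with log2 ratios of 0.48 and 0.76, beside 0.27 and 0.89 in other cells, and the targets *Id1* and *Id3*, inhibitors of bHLH factors, were lower with -0.34 and -0.30, beside -0.57 and -0.09. Another target, *Id2*, stood at 107 and 122 CPM in members, a log2 ratio of 0.19 (-0.02 to 0.40), and at 504 and 305 CPM in other cells, a log2 ratio of -0.72. In the retinoic acid list, with 3 measured genes, *Crabp1*, which encodes a binding protein of retinoic acid, was higher beyond counting error and *Cyp26a1* and *Rara* were not. *Crabp1* had 16.4 and 23.6 CPM in members, a log2 ratio of 0.53 (0.02 to 1.04) beside 1.68 in other cells and 0.71 in streak cells. The difference from other cells, -1.15 (-1.69 to -0.61), left counting error and that from streak cells, -0.19 (-0.81 to 0.44), did not.

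The Notch list held a pair of opposite ratios. *Notch2*, a receptor, stood at 27.0 CPM (21.9 to 32.8) in MS-LS members and 153 CPM (140.0 to 168) in OB-EB members, a log2 ratio of 2.51 (2.19 to 2.83). *Hes1* (chr16:30064384-30067796), a transcriptional repressor that Notch and other signals induce, stood at 392 CPM (372 to 413) and 123 CPM (111 to 136), a log2 ratio of -1.67 (-1.84 to -1.51). Both ratios were also found outside the members, with 2.10 and -1.70 in other cells and 1.84 and -2.17 in streak cells. No other gene of the list had enough UMIs in members.

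Genes of the cell cycle and of glycolysis, lists of 18 and 17 measured genes, were lower more often than higher, with 8 against 2 and 10 against 3, beside 29.3% lower and 24.4% higher over all genes. Another 8 and 4 genes stayed within counting error, and the medians were -0.34 and -0.31. The medians in other cells were -0.37 and -0.47. *Ccnd2*, which encodes cyclin D2, was the exception at 2-fold, with 39.2 and 149 CPM and a log2 ratio of 1.92 (1.65 to 2.20), beside 2.18 in other cells. *Ccnd1*, which encodes cyclin D1, stood at 68.4 and 62.5 CPM in members and at 43.8 and 68.6 CPM in other cells, a difference of log2 ratios of -0.78 (-1.09 to -0.46). The lactate dehydrogenase gene *Ldha* had 2213 and 1205 CPM, a log2 ratio of -0.88 (-0.93 to -0.82) beside -0.75 in other cells, and the glucose transporter gene *Slc2a1* had 141 and 84.9 CPM, a log2 ratio of -0.73 beside -0.84. The hexokinase gene *Hk2* and the enolase gene *Eno1* were higher, the latter with 1091 and 1626 CPM, a log2 ratio of 0.58 beside 0.57. Of 5 immediate early and heat shock genes, which respond to stress and to dissociation of tissue, *Egr1*, *Ier2* and the chaperone gene *Dnajb1* were lower, the last with 49.3 and 29.2 CPM and a log2 ratio of -0.76 beside -1.16 in other cells, *Fos* was higher and *Jun* stayed within counting error. Among 5 amino acid transporters, *Slc7a3* was lower (122 and 74.2 CPM, a log2 ratio of -0.72 beside -0.61 in other cells) and the other 4 stayed within counting error.

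**Figure D5:**
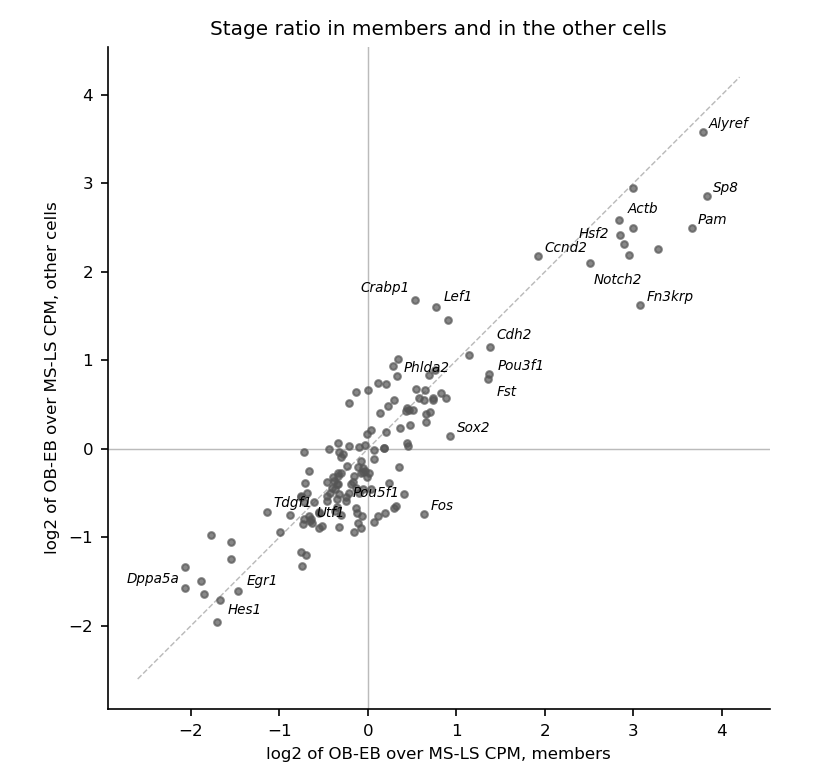
Log2 of OB-EB over MS-LS CPM in members (horizontal axis) against the same in the other cells of both libraries (vertical axis) for the named and listed genes with enough UMIs in both; the dashed line marks equal ratios. The axes share the 2 libraries. Sox2 (0.93 and 0.15) and Fos (0.64 and -0.74) lie below it, and Lef1 (0.77 and 1.60) and Crabp1 (0.53 and 1.68) lie above it.

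Beyond the lists, the 10 genes with the largest ratio toward OB-EB were *Sp8*, *Alyref*, *Pam*, *Gm12940*, *Fn3krp*, *Fhl3*, *Rbm45*, *Ggact*, *Hsf2* and *Tacc1*, with log2 ratios of 2.85 to 3.83. All 10 were also higher in the other cells of OB-EB, with log2 ratios of 1.63 to 3.58. The ratio in members exceeded that in other cells beyond counting error for *Sp8*, *Alyref*, *Pam*, *Gm12940*, *Fn3krp* and *Hsf2*, and not for *Fhl3*, *Rbm45*, *Ggact* and *Tacc1*, of which *Fhl3* and *Tacc1* exceeded the ratio in streak cells by 1.15 (0.54 to 1.76) and 1.02 (0.25 to 1.78). *Alyref*, an mRNA export factor, stood at 146 and 2017 CPM in members, a log2 ratio of 3.79, beside 3.58 in other cells, and *Rbm45*, an RNA-binding protein gene, had 2.99 beside 2.95. *Fn3krp*, a kinase of glycated proteins, had 5.72 and 48.4 CPM in members, a log2 ratio of 3.08 that exceeded that of other cells, 1.63, by 1.45 (0.73 to 2.17). *Pam*, a peptide-amidating enzyme, had 6.0 and 75.7 CPM and log2 ratios of 3.66 in members and 2.50 in other cells. The 10 genes with the largest ratio toward MS-LS were *Dppa5a*, *4933439K11Rik*, *RP24-545I11.1*, *Gm8624*, *Mterf3*, *Gm12013*, *Hes1*, *Foxd3*, *Gm6563* and *Hspbap1*, with log2 ratios of -1.54 to -2.07. In other cells *4933439K11Rik*, *Gm8624*, *Gm12013*, *Gm6563* and *Hspbap1* were lower too, with log2 ratios of -1.33, -1.64, -1.96, -1.25 and -1.05. For these genes, *Dppa5a* and *Hes1*, the ratio in members differed from that in other cells only within counting error. *Gm8624*, *Gm12013* and *Gm6563* are annotated as pseudogenes, whose reads may be shared with their parent genes, so their values are uncertain.

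Members were not uniform, and at both stages genes were spread unevenly over them. In this description members were thinned to 2000 UMIs, which left 984 in MS-LS and 803 in OB-EB. *Pou3f1* was found in 55.6% (49.2 to 61.9) of the OB-EB members with *Utf1* and in 29.7% (26.0 to 33.7) of those without it. In MS-LS these shares were 18.5% (14.8 to 22.6) and 13.7% (11.0 to 16.7), a difference of 4.81 percentage points (0.19 to 9.61). *Sox2* was found in 26.1% (21.2 to 31.4) of OB-EB members with *Pou3f1* and in 13.2% (10.4 to 16.5) of those without. In OB-EB *Sox2* was also more frequent with *Utf1*, by 10.6 percentage points (4.68 to 17.0). In MS-LS its differences did not leave counting error, at 4.65 (-0.50 to 11.3) with *Pou3f1* and 2.90 (-0.96 to 7.00) with *Utf1*. *Utf1*, *Pou3f1* and *Sox2* thus went together in OB-EB members, but not as a group of their own. Fewer MS-LS members held *Pou3f1* (15.7%) and *Sox2* (10.4%) than OB-EB members (37.7% and 18.1%). Whether the stages differ in this was not tested. *Pim2* and *Dnmt3b* were also more frequent with *Utf1*. In OB-EB the differences were 19.9 (12.5 to 27.1) and 13.4 points (7.61 to 18.7). In MS-LS they were 10.5 (4.15 to 16.7) and 15.0 (10.0 to 19.7). *Phlda2*, which was higher in members with 1 *Pou5f1* UMI, was less frequent in OB-EB members with each of these genes. The differences were -12.0 points (-18.6 to -4.89) with *Utf1*, -11.9 (-18.4 to -5.09) with *Pou3f1* and -20.5 (-27.3 to -12.4) with *Sox2*. They were -18.9 (-27.0 to -10.6) with *Dnmt3b* and -15.2 (-21.6 to -8.49) with *Pim2*. Whether these genes go together because some members met the rule more narrowly was not tested.

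*Fst* and *Sp8*, both of the caudal epiblast list, were less frequent in OB-EB members with *Pou3f1*. The paper places both among genes expressed in the primitive streak. In OB-EB, *Fst* stood at 175 CPM in *Pou5f1*-positive cells with 1 excluded UMI and at 253 CPM with 2 or more. Members grouped by *Pou5f1* UMIs had 83.7 to 139 CPM. Whether the shares below mark a caudal part of the epiblast was not tested. *Fst* was found in 12.2% (8.7 to 16.4) of OB-EB members with *Pou3f1* and in 22.8% (19.2 to 26.7) without, and *Sp8* in 12.9% (9.3 to 17.2) and 22.6% (19.0 to 26.5). With *Utf1* the differences were -8.54 percentage points (-13.6 to -2.81) for *Fst* and -6.38 (-11.6 to -0.52) for *Sp8*, and with *Sox2* they did not leave counting error, at -6.96 (-12.5 to 0.11) and -5.43 (-11.2 to 1.81). *Sp8* was found in 29.8% (22.6 to 37.8) of members with *Fst* and 16.4% (13.6 to 19.5) without. *Nanog* was rare, in 23 of 803 OB-EB members, of which 11 held *Fst* (47.8%, 26.8 to 69.4), against 17.9% (15.3 to 20.8) of the members without *Nanog*. In MS-LS, *Fst* was likewise less frequent in members with *Utf1*, 6.40% (4.2 to 9.2), than in those without, 13.7% (11.0 to 16.7), and so was *Phlda2*, 12.1% (9.1 to 15.6) against 26.6% (23.1 to 30.4). At least 3 of the 20 genes of the caudal epiblast list were found in 1.32% of MS-LS members and 5.6% of OB-EB members at this depth. At least 3 of 20 anterior neural genes were found in 0.915% and 3.49%.

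The reporter of past *T* expression was rare in every group of the MS-LS and OB-EB libraries, members included. The paper, too, recovered few of its reads at these stages and did not call labelled cells from them. A cell without a reporter UMI can therefore not be taken as unlabelled. A UMI of the tdTomato transcript tail was found in 23 of 874 MS-LS members (2.63%, 1.68 to 3.92) and 44 of 1136 OB-EB members (3.87%, 2.83 to 5.16), beside 3.14% and 4.22% of the streak cells and 1.88% and 3.08% of all other cells. Cells with visceral endoderm transcripts held it in 0.293% of cases in MS-LS (0.04 to 1.05) and 0.576% in OB-EB (0.07 to 2.07), at median depths of 4513 and 3228 UMIs. Of the EHF cells that met the rule for members, 69 of 828 (8.33%) held it, against 209 of 593 Pou5f1-positive streak cells (35.2%) of that library. Tamoxifen was given at a different time before collection in each library, so the shares cannot be compared between stages.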

How the data were processed

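The authors captured dissociated embryos with the Chromium Single Cell 3′ v2 assay, counted UMIs with Cell Ranger 3.0.2 on GRCm38 with the reporter sequence added, filtered barcodes by their numbers of genes and UMIs and their mitochondrial share, and deposited raw counts per gene and cell, which were used as deposited. R 3.6.1 and Seurat 3 appear in the submitters' processing notes. The pair of EHF tables differed in 0 places. MS-LS and OB-EB shared 18 barcodes, none of them a member in both. Scrublet (scanpy 1.11.5) marked 6 MS-LS and 0 OB-EB cells, too few to serve, so no cell was removed as a doublet, and leaving out the 5% highest scores was an alternative.

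Members, lists and tests were chosen with earlier results of these data known. UMIs were summed per group in Python 3.11.15 (numpy 2.4.6, scipy 1.17.1), with Poisson, Clopper-Pearson and ratio intervals, and Newcombe intervals for differences of shares. edgeR 4.0.16 (R 4.3.3) gave TMM factors for an alternative. Ratios were counted over genes with at least 100 UMIs in both groups together, and called at 2-fold. A gene with 0 UMIs in 1 of the groups counted as called at 2-fold. A floor of 3 UMIs entered only a separate bound for such genes, not the ratios or counts. The genes ranked by ratio needed at least 1 UMI in each group. The code was tested on simulated counts. Cells with UMIs of at least 4 genes of visceral endoderm or extraembryonic ectoderm served as background of detection. A cell counted as female if it held *Xist* and lacked transcripts of Y-linked genes. Named genes are those of the rule, of 25 lists with enough UMIs, and the 10 largest ratios in each direction (for members against other cells only the higher ones are named). The rankings left out mitochondrial, ribosomal protein and vector genes, *Xist*, *Tsix* and genes of the Y chromosome. Other genes of the X chromosome were kept, among them *Slc7a3* and *Pim2*. Some listed genes are not reported here and were left out of their lists. 17 listed genes lacked a row in at least 1 of the tables. Gene positions come from the GRCm38 annotation. Alternatives were depth, purity, doublets, sex, scaling and count limits.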

Additional observations from a re-analysis of the deposited data

Results flagged for a closer look

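Among the named and listed genes, 1 had stage ratios that left counting error in opposite directions in the members and in the other cells of the same libraries. *Fos*, an immediate early gene, stood at 11.7 CPM in MS-LS members and 18.2 CPM in OB-EB members, and at 53.8 and 32.2 CPM in other cells, so that the log2 ratios of 0.64 (0.04 to 1.24) and -0.74 differed by 1.38 (0.77 to 1.98). In streak cells *Fos* had -0.24 (-0.62 to 0.14). The intervals cover counting error only, and with 1 library per stage the difference was not tested.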

How the results depend on the processing

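No paired analysis was possible because each stage is 1 library and no test was made. The share of members was 24.0% in MS-LS and 28.4% in OB-EB. For MS-LS it was 28.9% at 2000 UMIs per cell, 20.1% with at least 2 *Pou5f1* UMIs, 17.3% without members that held 3 genes of another lineage and 20.8% among cells called female. For OB-EB it was 17.1%, 22.4% and 26.6% under the last 3 of these. The 238 genes that were 2-fold higher at OB-EB became 105 among female cells, 632 with a limit of 20 UMIs and 112 with 300 UMIs, and the 112 lower genes became 339 and 56 under the 2 limits. Against other cells, the 123 genes of MS-LS members became 61 at 2000 UMIs per cell, 57 among female cells, 438 with 20 UMIs and 36 with 300, and the 79 of OB-EB members became 31, 27, 351 and 25. The limits on UMIs and the thinning change how many genes are tested. So does keeping only female cells, which left 181 MS-LS and 298 OB-EB members under the same limit of 100 UMIs. How much of the change in female cells this accounts for was not tested. Of 28 genes given by name or list that were 2-fold different between stages, 27 or 28 stayed so in every alternative. *Pou3f1* had 0.79 in female cells, and *Lhx1* had 0.34 at 2000 UMIs per cell, 0.38 with 2 *Pou5f1* UMIs and 0.87 as a mean over cells. None of the 28 changed sign. Of all 146 named or listed genes, 54 left the counting interval of their ratio among female cells and 32 at 2000 UMIs per cell, where 131 and 128 kept their sign. Depth limits genes under about 100 UMIs, which include *Nodal*, most neural plate genes and most caudal genes.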

Other observations

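A few genes of very large stage ratio lay outside the rule for named genes and were chosen after their values were seen. *Rps3a3*, by its symbol a paralog of the ribosomal protein gene *Rps3a1*, stood at 304 CPM in MS-LS members and 4.09 CPM in OB-EB members, a log2 ratio of -6.22 (-7.13 to -5.44), and at 296 and 7.78 CPM in other cells. *Rps3a1* itself, from which its reads may not be separable, had 2885 and 2412 CPM in members, a log2 ratio of -0.26. *Actb*, which encodes beta-actin, stood at 1944 and 13922 CPM in members, a log2 ratio of 2.84 (2.80 to 2.88), and had 2.59 in other cells and 2.55 in streak cells. For both genes the stage and the library cannot be told apart.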
